A study of Mus musculus with 13 samples.

Results

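The genes described here are 10 core and upstream components of the mouse Hippo pathway, taken by name from the 23361 gene symbols of the deposited tables. They are the sterile-20 kinases Stk4 (Mst1), Stk3 (Mst2) and Taok1, the scaffold Sav1, the kinases Lats1 and Lats2, the Lats co-activators Mob1a and Mob1b, and the membrane-associated regulators Nf2 and Wwc1. RNA was sequenced from liver tumours (hepatocellular carcinoma) of Mst1-/-; Mst2Flox/Flox mice of a mixed C57BL/6 and 129Sv background that had received an adenovirus carrying Cre. The mice were then given intravenous lipid nanoparticles with an siRNA against Yap (siYap, 5 libraries) or against luciferase, a sequence foreign to the mouse (siLuc, 8 libraries), for 9 days. Both groups thus carry the germline loss of Mst1 and the floxed Mst2, and no tumour or liver with intact Mst1 and Mst2 was analysed here. An adenovirus deletes a floxed gene only in the cells that it enters. The labels give neither the ages of the mice nor how many mice the libraries came from, so the p-values here speak of library-to-library spread, and libraries may share animals.

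In the Hippo pathway, Mst1 and Mst2, bound to Sav1, switch on Lats1 and Lats2, which work together with Mob1a and Mob1b. Active Lats kinases phosphorylate the co-activators Yap and Taz and keep them out of the nucleus, where they would otherwise act with Tead factors on growth genes. Taok kinases activate Mst, while Nf2 (merlin) and Wwc1 (Kibra) bring the kinases together at the membrane. In mouse liver, loss of Mst1 and Mst2, of Sav1 or of Nf2 is known to cause overgrowth and tumours through Yap.

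The letters GGAATG, the core that Tead factors bind, were searched for, because the siRNA lowers the Tead partner Yap, on both strands (CATTCC on the other) in the 250 bases before 11 starts of 9 of the 10 genes (RefSeq, build GRCm38.p6). Stk3 has no entry. They were found before 2 of the 11 starts (18.2%), against 12.6% of all starts, and each hit is shown in 30 bases with the match in capitals. The Mob1a match lies at chr6:83325818-83325847 (plus strand) and the Sav1 match at chr12:69987091-69987120 (minus strand). The Sav1 start searched here is an inner one, so this match lies inside the Sav1 gene (69965009 to 69988141), not ahead of it.
Mob1a: tggccagaatagCATTCCtttaggagaaga
Sav1: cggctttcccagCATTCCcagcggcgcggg
Both genes are described with their values further on. A match of letters is a description, not a bound site.

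Levels are given as CPM, a gene's fragments relative to all fragments of its library after TMM scaling, and differences as log2 fold changes of siYap over siLuc from edgeR's quasi-likelihood test, with Benjamini-Hochberg adjusted p over 15132 tested genes and a threshold of 0.05. The libraries held 23637021 to 37043914 fragments assigned to genes, fewest in siYap replicates 1 and 3. Hepatocyte transcripts were abundant in both groups (Ahsg, fetuin-A, at 7185 ± 1177 CPM, SD, n = 8, in siLuc and 5564 ± 1696 CPM, n = 5, in siYap). Yap1, the target of the siRNA, stood at 46.5 ± 6.43 CPM (SD, n = 8) in siLuc and 15.6 ± 4.31 CPM (n = 5) in siYap (log2 fold change -1.58, adjusted p = 2.4e-05). Wwtr1, which encodes Taz, stood at 83.7 ± 23.3 and 66.1 ± 15.3 CPM (adjusted p = 0.192).

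None of the 10 genes passed the test, whereas 30.8% of all tested genes did (14.8% lower and 16.0% higher in siYap). All 10 had enough fragments to be tested, and DESeq2's Wald test likewise called none of them. Only Lats1 had an unadjusted p under 0.05, against 42.6% of all tested genes. The fitted change was upward for 4 and downward for 6, with a median log2 fold change of -0.08, beside -0.0026 over all tested genes. In each of the 10 the siLuc and siYap values overlapped. For 6.32% of tested genes every siYap value exceeded every siLuc value, and for 5.84% the reverse held. A p that misses the threshold does not show equal levels, so the 95% interval of each difference is given with each gene.

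**Figure D1:**
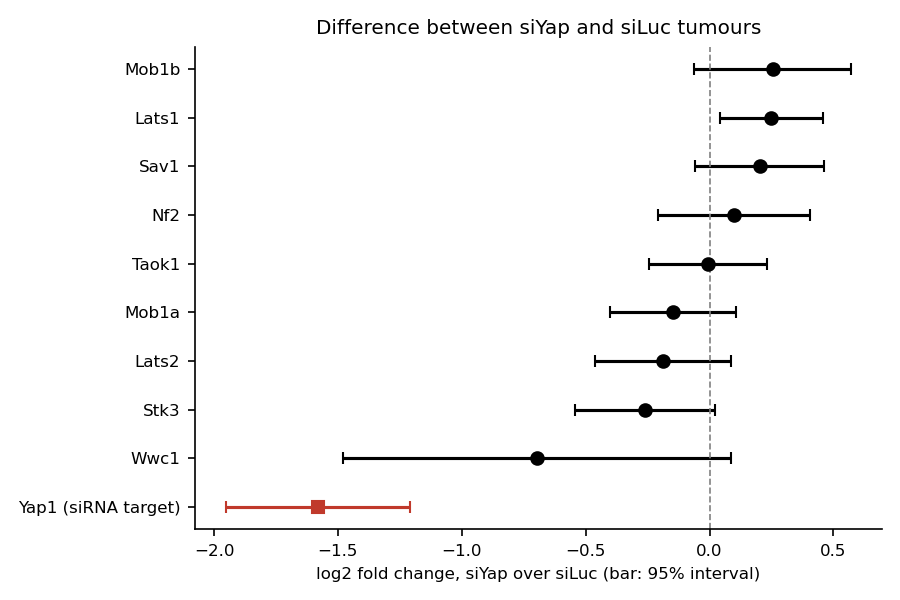
Log2 fold change of siYap over siLuc (x axis) for 9 of the 10 genes and for Yap1, with bars for the 95% interval, over 8 siLuc and 5 siYap libraries. Stk4, at most 16 fragments per library, is left out. Of the genes drawn in black, Lats1 alone has an interval that does not reach 0, and Wwc1 has the widest interval.

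Stk4, the germline-deleted Mst1 (mm10, chromosome 2, 164074113 to 164155524, plus strand), was at trace level in all libraries. The siLuc libraries held 0 to 16 fragments of it and the siYap libraries held 8, 10, 4, 4 and 12. The single count of 0, in siLuc replicate 1, allows up to 3 fragments by counting error alone. Per length, Stk4 reached at most 0.089 FPKM (fragments scaled to transcript length and library depth) in any library. At this depth the ratio between the groups could lie anywhere from 0.369 to 1.91.

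Stk3, the floxed Mst2 (chromosome 15, 34875499 to 35155882, minus strand), was still read in all tumours. The count covers the whole gene and so does not check whether the floxed part was lost. The siLuc libraries ran from 15.8 CPM over a median of 19.1 to 22.02 CPM. The siYap libraries stood at 20.6, 14.5, 12.5, 15.9 and 16.8 CPM. All siYap values but that of replicate 1 lay below the siLuc median, and replicates 2 and 3 lay below every siLuc library. The log2 fold change was -0.26 (95% interval -0.54 to 0.02, adjusted p = 0.145), and it was -0.37 with an adjusted p of 0.0490 without siYap replicate 1. Libraries are also set apart by the first digit of a code in their names (6, 7 or 8), whose meaning the labels do not give. Within these digits the difference in Stk3 was -0.11, -0.51 and 0.09 on the log2 scale, the last from a single library of each treatment.

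Sav1, the scaffold that binds Mst1 and Mst2 (chromosome 12, 69965009 to 69988141, minus strand), ran in siLuc from 13.5 CPM over a median of 15.8 to 19.8 CPM. In siYap it stood at 19.0, 16.5, 18.7, 19.5 and 20.1 CPM. All siYap values lay above the siLuc median, and replicate 5 alone lay above every siLuc library. Its log2 fold change was 0.20 (95% interval -0.06 to 0.46, adjusted p = 0.224). An exon of Sav1 overlaps one of Atl1 on the other strand, and whether the counting used strand is not given in the sources used here.

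Taok1, the kinase upstream of Mst (chromosome 11, 77529162 to 77625359, minus strand), was the least variable of the 10 in siLuc, with a coefficient of variation of 7.14%. It ran in siLuc from 374 CPM over a median of 424 to 473 CPM, and stood at 420.1, 448, 354, 452 and 444 CPM in siYap. Only siYap replicate 3 lay outside the siLuc range. The log2 fold change was -0.0069, with an interval from 0.844 to 1.17 as a ratio (adjusted p = 0.970), and its sign turned with a stricter count filter, with limma on FPKM, with the replicate block, with summed counts and with some single libraries left out. Part of an exon is shared with Abhd15 on the other strand.

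**Figure D2:**
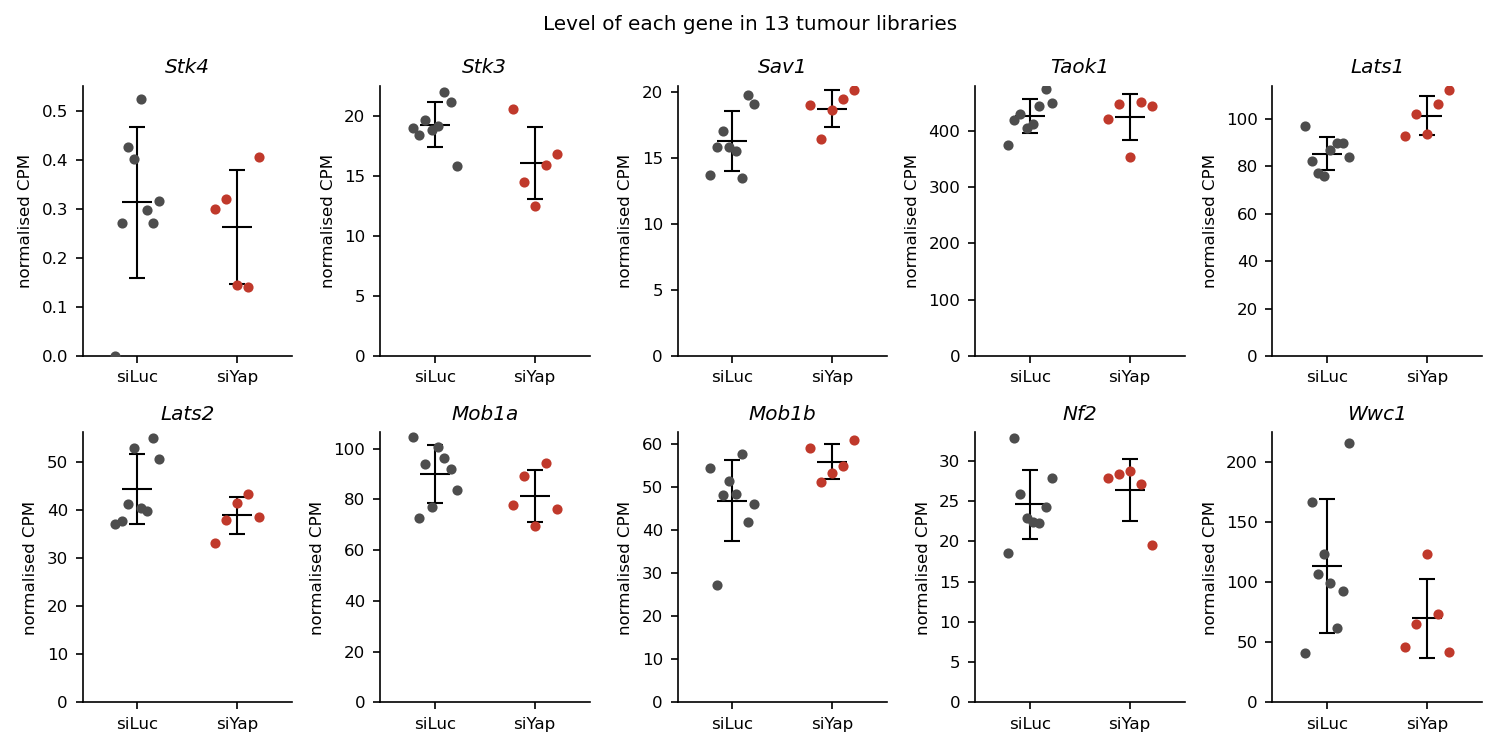
Normalised CPM (y axis, from 0) of each gene in each library, siLuc in grey (n = 8) and siYap in red (n = 5), with mean and SD as bars. The groups overlap in every panel. Wwc1 spreads from 41.3 to 216 CPM in siLuc, and Taok1 stays between 374 and 473 CPM.

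Lats1 (chromosome 10, 7681200 to 7716461, plus strand), a kinase that phosphorylates Yap and Taz, came closest to the threshold. The siLuc libraries ran from 76.0 CPM over a median of 85.4 to 96.9 CPM. The siYap libraries stood at 92.8, 102, 93.5, 106 and 112 CPM. A single control, siLuc replicate 1, overlapped the siYap range, and the other 7 lay below it. The log2 fold change was 0.25 (95% interval 0.04 to 0.46, adjusted p = 0.0654), a ratio of 1.19. Within the digits 6, 7 and 8 it was 0.13, 0.25 and 0.42, the last between single libraries. Lats1 passed the threshold without siLuc replicate 1 (adjusted p = 0.0422), without replicate 1 of both groups (0.0372), without siYap replicates 1 and 3 (0.0453) and when only genes with a mean of at least 50 fragments were tested (0.0342). Over all 26 alternatives its adjusted p ranged from 0.0342 to 0.225.

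Lats2 (chromosome 14, 57689662 to 57746212, minus strand), the paralog of Lats1 and itself a known target of Yap, went the other way in its fitted value. The siLuc libraries ran from 37.0 CPM over a median of 40.9 to 55.1 CPM. In siYap Lats2 stood at 33.2, 38.0, 41.55, 43.4 and 38.5 CPM. The 3 highest siLuc libraries (replicates 4, 7 and 8) lay above every siYap library, while the lower 5 overlapped with them. Its log2 fold change was -0.19 (95% interval -0.46 to 0.08, adjusted p = 0.278). Its exons overlap those of Gm49361 on the same strand, so some fragments could belong to either.

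Mob1a (chromosome 6, 83326034 to 83342812, plus strand) and Mob1b (chromosome 5, 88720871 to 88758455, plus strand) encode 2 nearly alike co-activators of the Lats kinases. Mob1a ran in siLuc from 72.5 CPM over a median of 93.0 to 105 CPM, and stood at 77.7, 89.03, 69.4, 94.5 and 76.2 CPM in siYap. Mob1b ran in siLuc from 27.3 CPM over a median of 48.3 to 57.7 CPM, and stood at 59.1, 51.3, 53.4, 54.9 and 61.0 CPM in siYap. For Mob1b all 5 siYap values lay above the siLuc median and 2 lay above every siLuc library. The log2 fold change was -0.15 for Mob1a (95% interval -0.40 to 0.11, adjusted p = 0.368). For Mob1b it was 0.25 (95% interval -0.06 to 0.57, adjusted p = 0.205).

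Nf2 (chromosome 11, 4757639 to 4849544, minus strand), which encodes the membrane-linked tumour suppressor merlin, ran in siLuc from 18.6 CPM over a median of 23.6 to 32.8 CPM. In siYap it stood at 27.9, 28.4, 28.75, 27.2 and 19.5 CPM. Of the siYap libraries, 4 lay between 27.2 and 28.75 CPM, and replicate 5 stood apart from them near the lowest siLuc value. For Nf2 the log2 fold change was 0.10 (95% interval -0.21 to 0.40, adjusted p = 0.630). Within the digits 6, 7 and 8 the difference was 0.19, 0.25 and -0.51, the last between siLuc replicate 8 and siYap replicate 5 alone.

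RefSeq (build GRCm38.p6, the assembly of mm10) places transcript starts of Nf2 at 2 sites, and GENCODE M21 lists 7 coding transcripts of 476 to 4720 bases. The 250 bases before each start are shown because the fragments behind 1 FPKM separated the groups for Nf2 alone, as described further on. This number can depend on transcript make-up, and what it reflects for Nf2 was not tested. The outer start lies behind chr11:4849545-4849794 (minus strand) and the inner one behind chr11:4833136-4833385 (minus strand), neither within an annotated Nf2 exon.
Nf2 outer: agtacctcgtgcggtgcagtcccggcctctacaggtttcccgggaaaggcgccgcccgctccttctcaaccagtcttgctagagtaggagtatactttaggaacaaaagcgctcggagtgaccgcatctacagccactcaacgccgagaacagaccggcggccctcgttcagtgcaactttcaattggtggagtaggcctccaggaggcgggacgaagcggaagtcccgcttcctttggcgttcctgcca
Nf2 inner: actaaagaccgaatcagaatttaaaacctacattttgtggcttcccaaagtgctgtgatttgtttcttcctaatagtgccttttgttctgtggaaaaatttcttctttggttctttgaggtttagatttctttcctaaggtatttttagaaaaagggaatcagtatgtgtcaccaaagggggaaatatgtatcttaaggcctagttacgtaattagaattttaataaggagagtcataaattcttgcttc
The outer stretch is 59.2% G or C and holds 20 CpG, and the inner one is 33.6% G or C and holds 2 CpG, beside medians of 52.4% and 6 over 32851 annotated starts. From which start the fragments came was not tested.

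Wwc1 (chromosome 11, 35838399 to 35980527, minus strand), which encodes the Nf2 partner Kibra, varied most between tumours of 1 group among the members with more than trace levels. The siLuc libraries ran from 41.3 CPM over a median of 103 to 216 CPM, a 5.23-fold range and a coefficient of variation of 49.4%. In siYap Wwc1 stood at 46.0, 65.7, 124, 73.5 and 41.8 CPM. Of these, 4 lay under every siLuc library other than replicates 1 and 6. The log2 fold change was -0.69 (95% interval -1.48 to 0.09, adjusted p = 0.162), so that a fall to 0.359 of the siLuc level or a rise to 1.06 of it are both within its interval. Within the digits 6, 7 and 8 the difference was -0.60, 0.01 and -2.37, the last between single libraries.

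Comparison of levels between the 10 genes needs a value per length, for which the deposited FPKM was used. In 7 siLuc libraries (all but replicate 1, for the reason given below) Mob1a was highest at 54.8 ± 6.32 FPKM (SD), above Wwc1 at 33.8 ± 14.3 and Taok1 at 30.03 ± 1.60 FPKM. Mob1b at 13.1 ± 2.68 and Lats1 at 10.1 ± 0.702 FPKM followed. Lats2 (8.11 ± 1.20 FPKM), Nf2 (7.59 ± 1.49 FPKM), Sav1 (6.08 ± 0.779 FPKM) and Stk3 (6.03 ± 0.614 FPKM) came last before Stk4 (0.061 ± 0.016 FPKM). By their ranges over these libraries, Wwc1 overlapped with both Mob1a and Taok1, Mob1b with Lats1, Lats1 with Lats2, Lats2 with Nf2, Nf2 with Sav1 and Sav1 with Stk3.

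The balance between partner genes within a library does not depend on how libraries are scaled. Of the possible pairs, 3 were chosen (Lats2 with Lats1, Mob1b with Mob1a, Stk3 with Sav1), and others, such as Wwc1 with Nf2, were not compared. In each chosen pair the fitted log2 fold changes of the genes, given above, had opposite signs. The 3 pairs were compared with two-sided exact permutation tests over samples (1287 arrangements, smallest possible p = 0.000777), adjusted over the 3 pairs. As a ratio of fragments, a measure chosen after the data were seen because of the FPKM values described below, all 3 shifted. The ratio of Lats2 to Lats1 was 0.525 ± 0.106 in siLuc (SD, n = 8) and 0.385 ± 0.0409 in siYap (n = 5). The siYap libraries stood at 0.357, 0.372, 0.444, 0.408 and 0.344, and the siLuc libraries ran from 0.382 over a median of 0.501 to 0.697, so that the groups overlapped at their edges. The log2 difference was -0.43 (exact permutation p = 0.0148, adjusted p = 0.0148). It was -0.20, -0.35 and -0.81 within the digits 6, 7 and 8, the last between single libraries. The fragments of Lats2 behind 1 FPKM also differed between the groups, as described below. As a ratio of FPKM, Lats2 to Lats1 missed the threshold (log2 difference -0.37, exact permutation, adjusted p = 0.0559).

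The ratio of Mob1b to Mob1a moved up. It was 0.520 ± 0.0892 in siLuc and 0.698 ± 0.110 in siYap (log2 difference 0.43, exact permutation p = 0.0140, adjusted p = 0.0148). In siYap this ratio was 0.761, 0.576, 0.769, 0.581 and 0.801, and the siLuc libraries ran from 0.376 over a median of 0.517 to 0.667. The siYap replicates 1, 3 and 5 lay above every siLuc library, and replicates 2 and 4 did not. Within the digits the log2 difference was 0.58, 0.32 and 0.54, the last between single libraries.

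The ratio of Stk3 to Sav1, an enzyme and its scaffold, moved down. It was 1.21 ± 0.233 in siLuc and 0.857 ± 0.149 in siYap (log2 difference -0.49, exact permutation p = 0.0124, adjusted p = 0.0148). The siYap libraries stood at 1.083, 0.879, 0.668, 0.819 and 0.835, and the siLuc libraries ran from 0.827 over a median of 1.17 to 1.63. The siLuc replicates 7 and 8 lay within the siYap range, and the other 6 above it. Within the digits the log2 difference was -0.38, -0.75 and 0.01, the last between single libraries. The Stk3 count in this ratio covers the whole floxed gene and does not check whether the floxed part was lost.

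**Figure D3:**
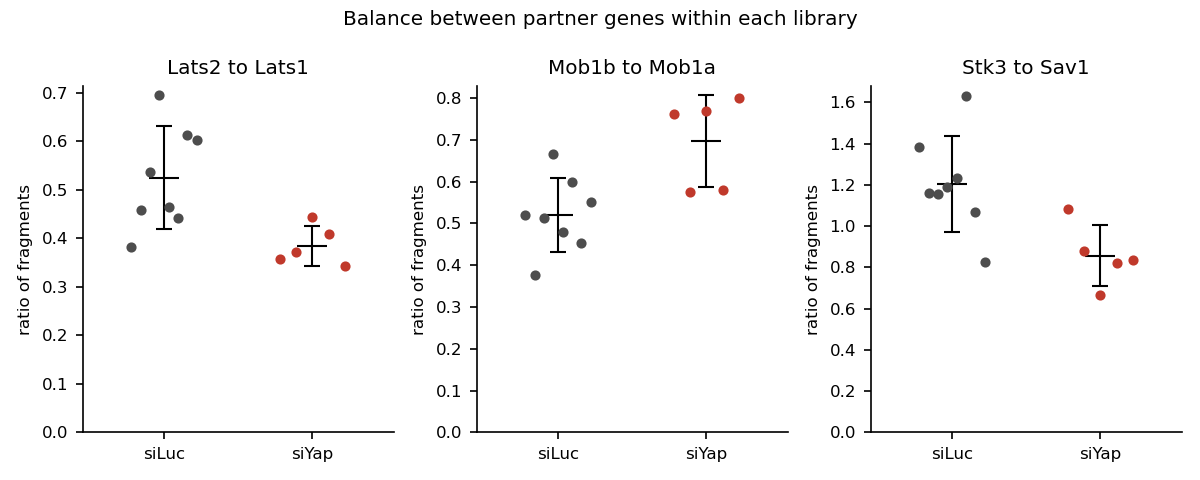
Ratio of fragments (y axis, from 0) of Lats2 to Lats1, Mob1b to Mob1a and Stk3 to Sav1 in each library, siLuc in grey (n = 8) and siYap in red (n = 5), with mean and SD. The first and last ratios are lower in siYap (0.385 against 0.525, and 0.857 against 1.21), the middle one is higher (0.698 against 0.520), and each pair of groups overlaps.

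With any single library left out, the adjusted p of the 3 ratios of fragments stayed between 0.00758 and 0.0384. With libraries averaged per number in the file name (8 numbers, which may be animals), the log2 differences were -0.53, 0.41 and -0.42 and the adjusted p were 0.0804, 0.0804 and 0.0893. Without siYap replicates 1 and 3, Mob1b to Mob1a fell short (log2 difference 0.33, adjusted p = 0.0970). Taken as ratios of FPKM, the measure chosen first, the differences were -0.37 for Lats2 to Lats1 (adjusted p = 0.0559), 0.47 for Mob1b to Mob1a (0.0373) and -0.48 for Stk3 to Sav1 (0.0373).

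The FPKM of 2 libraries is on another scale than that of the rest. For 12649 of 14811 tested genes with fragments in all libraries (85.4%), the number of scaled fragments behind 1 FPKM was the same, within 1%, in all 11 libraries other than siLuc replicate 1 and siYap replicate 1. In siLuc replicate 1 it was off by more than 10% for 56.8% of these genes, and in siYap replicate 1 for 62.3%. Mob1b was the most affected of the 10: its 110.9 scaled fragments per FPKM in the other 11 libraries became 79.97 in siLuc replicate 1 and 76.9 in siYap replicate 1, so that the deposited FPKM of these libraries reads high. Wwc1 went the opposite way, by 20.9% and 18.6%. In siLuc replicate 1 the Mob1b level was thus 22.4 FPKM, above all other siLuc libraries (7.92 to 16.5 FPKM), while its 54.5 CPM lay within their range. The CPM used above do not carry this shift.

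**Figure D4:**
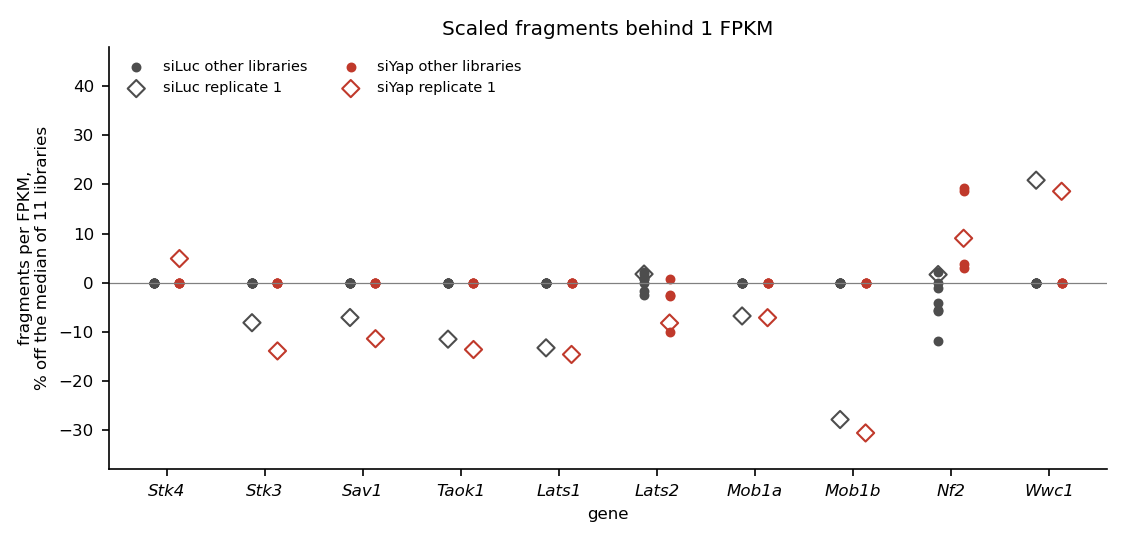
Scaled fragments per FPKM of each gene, in percent off the median of the 11 libraries other than replicate 1 (y axis), for siLuc (grey) and siYap (red). Open diamonds mark replicate 1 of each group, which is off by up to 30.6% (Mob1b), while the other libraries share 1 value in all genes but Lats2 and Nf2.

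Only Lats2 and Nf2 among the 10 varied in this number between the other 11 libraries as well. Where the FPKM of a gene is the sum over its transcripts, the number is larger when more of the fragments come from long transcripts, and the files give no levels of single transcripts. For Nf2 it was 107.8 ± 5.24 in siLuc (SD, n = 8) and 123.2 ± 8.68 in siYap (n = 5). Every siYap library lay above every siLuc library (exact permutation p = 0.000777, the smallest possible, adjusted p = 0.00155 over the 2 genes). The number ran in siLuc from 98.0 to 113.6 and stood at 121.3, 114.6, 131.95, 115.5 and 132.6 in siYap, so the gap was narrow. Without replicate 1 of both groups it was 107.0 ± 5.16 (n = 7) and 123.7 ± 9.95 (n = 4), with an adjusted p of 0.00606 (exact permutation, 330 arrangements). Of 2162 tested genes that vary in this number, 1.90% had the 4 siYap libraries above the 7 siLuc libraries and 1.62% had them below. For Lats2 it was 177.4 ± 3.045 and 168.7 ± 7.85 (adjusted p = 0.00777, exact permutation), with overlap. The comparison of these numbers was added after the data were seen, and was not repeated with libraries averaged per number in the file name. It also bears on the sign of the Nf2 change: by fragments the log2 fold change was 0.10, and by limma on log2(FPKM + 1) it was -0.085 (adjusted p = 0.684).

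Beyond these 10, 95 further genes of the pathway were listed by role, of which 92 were in the files and 90 could be tested. Of these, 13 were higher and 19 lower in siYap, with a median log2 fold change of -0.07, beside 16.0% higher and 14.8% lower over all tested genes. The counts per list that follow are to be read against these shares, and no list was tested against the other genes. Relatives of the upstream kinases changed in both directions (12 tested, 3 higher, 2 lower). Taok3, the paralog of Taok1, rose from 23.7 ± 2.285 to 50.05 ± 23.35 CPM (log2 fold change 1.08, adjusted p = 0.00104), and Tnik rose from 4.11 ± 1.61 to 8.55 ± 2.37 CPM (adjusted p = 0.0115). Map4k3, which can act beside Mst on Lats, fell from 213 ± 37.9 to 136.5 ± 25.7 CPM (adjusted p = 0.00675). For Taok3 the groups did not overlap. Whether Taok3 and Taok1 differ in their change was not tested.

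In the STRIPAK phosphatase complex, which holds Mst kinases inactive, 1 of 12 genes rose and 2 fell, beside 30.8% called over all tested genes. The membrane anchor Slmap rose from 112 ± 16.8 to 145 ± 13.4 CPM (adjusted p = 0.0369), and Mob4 (adjusted p = 0.0202) and Pdcd10 (adjusted p = 0.0357) fell, with log2 fold changes of -0.54 and -0.51. The 6 NDR kinases and other Mob genes included no called gene. Stk38l had the smallest p (log2 fold change 0.49, adjusted p = 0.0668). Of 6 Rassf genes, Rassf3 rose (log2 fold change 0.66, adjusted p = 0.0315).

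Among membrane and FERM-domain regulators, 4 of 11 rose and 2 fell. Ezr (ezrin), a FERM-domain protein like Nf2, fell from 83.1 ± 20.95 to 20.35 ± 2.625 CPM (log2 fold change -2.03, adjusted p = 6.9e-06), with all siYap libraries below all siLuc libraries. Its close relative Msn (moesin), named after its value was seen, rose from 36.1 ± 5.50 to 74.75 ± 33.1 CPM (log2 fold change 1.05, adjusted p = 0.00227), and Rdx (radixin), named likewise, had a log2 fold change of -0.16 (adjusted p = 0.589). Pcdh1 rose (log2 fold change 1.42, adjusted p = 0.000559) and Fjx1 fell (log2 fold change -3.33, adjusted p = 0.00159). Fjx1 was low in both groups, at 3.38 ± 2.28 CPM in siLuc and 0.335 ± 0.258 CPM in siYap, and the groups overlapped. Wwc2, the paralog of Wwc1 and named after its value was seen, rose from 15.01 ± 4.32 to 23.25 ± 8.495 CPM (adjusted p = 0.0477). Among polarity genes 3 of 17 rose and 4 fell. The polarity scaffold Pard3 rose (log2 fold change 1.13, adjusted p = 0.000132), whereas its partner Pard6b (-1.28, adjusted p = 0.000276) and the apical protein Crb3 (-0.62, adjusted p = 0.00426) fell.

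Of 12 genes for the turnover of Hippo proteins, 1 rose and 3 fell, a share near the 30.8% called over all tested genes. The ubiquitin ligase Wwp1 rose (log2 fold change 0.61, adjusted p = 0.00572), and Fbxw11, which marks phosphorylated Yap for degradation, fell (log2 fold change -0.41, adjusted p = 0.0142), as did Birc2 (-0.54, adjusted p = 0.0231). The list of Yap1, Taz, the Tead factors and proteins that bind Yap, Tead or Lats held 6 lower and no higher genes among 14 (median log2 fold change -0.69), beside 14.8% lower over all tested genes. The 6 include Yap1, which the siRNA targets. The Lats inhibitor Ajuba had the smallest p of this list, at 52.1 ± 7.64 and 15.7 ± 2.97 CPM, and Tead4 stood at 11.6 ± 3.05 and 2.805 ± 0.893 CPM. Yap1, Ajuba, Tead4 and Amot, the last named after its value was seen, had all siYap libraries below all siLuc libraries.

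**Figure D5:**
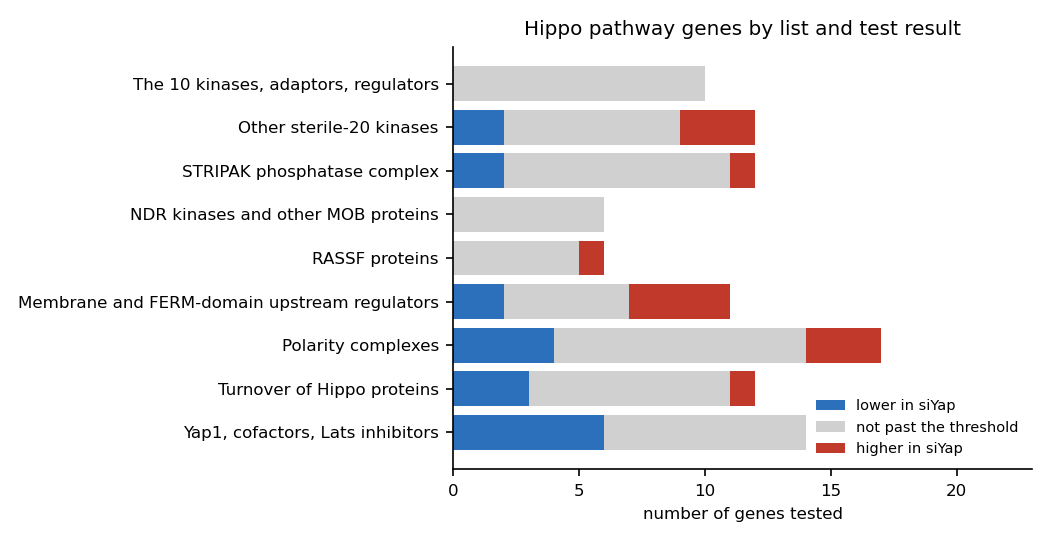
Number of tested genes (x axis) per list of Hippo pathway genes that were lower, higher or not past the threshold in siYap (edgeR, adjusted p under 0.05). The list of 10 at the top has no called gene, like the 6 NDR kinases and Mob proteins, while each other list has at least 1.

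The cell types that a tumour can hold were followed by marker lists, since fewer cells of a type and less RNA per cell cannot be told apart in whole tumour RNA. The summed CPM of 11 hepatocyte markers ran from 31730 to 50000 in siLuc and from 20360 to 36250 in siYap (none higher, 3 lower). The 10 cholangiocyte markers, dominated by Spp1 (5937 ± 1516 and 748 ± 607 CPM), ran from 3002 to 8048 and from 387 to 1820 (none higher, 4 of 9 tested lower). The 10 macrophage markers ran from 354 to 583 and from 149 to 306 (1 higher, 5 lower). Endothelial markers ran from 226 to 444 and from 284 to 536 (4 of 10 higher), stellate and fibroblast markers from 255 to 1092 and from 675 to 2881 (2 of 10 higher) and neutrophil markers from 21.7 to 79.8 and from 66.3 to 438 (8 of 9 higher). Lymphocyte markers ran from 104 to 273 and from 90.8 to 188 (1 of 9 lower). No marker in the files was at 0 in all libraries. The part of these shifts in the levels and ratios of the 10 genes was not tested.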

How the data were processed

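The authors deposited, per the file headers, 1 Cuffdiff table per library with estimated counts of fragments per gene, a scaled fragment signal and FPKM. The expected counts deposited there are unscaled, and 97.6 to 98.0% lie within 1e-06 of a whole number. The signal in the deposited tables is these counts times 1 factor per library, and the FPKM the authors deposited are per transcript length. Trimmomatic 0.30, TopHat2 2.0.8, Cufflinks, Cuffdiff 2.1.1 and build mm10 are named in the submitters' processing notes. The sources used here name neither the annotation nor the use of strand. The libraries were made with a ScriptSeq kit, per the labels' protocols.

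Counts were rounded and tested with edgeR 4.0.16 (R 4.3.3; TMM, filterByExpr, robust quasi-likelihood F test, no covariates), with Benjamini-Hochberg adjustment over 15132 genes. The 3 genes marked HIDATA were left out. limma 3.58.1 and DESeq2 1.42.0 served as alternatives. No 2 libraries of a group looked like the same library (chi-square over degrees of freedom at least 34.8). The test was checked on simulated data. Named genes were the 10, Yap1, Wwtr1, up to 3 called genes of smallest p per pathway list (or 1 of smallest p where none was called) and leading genes of marker lists by FPKM. Members and lists were chosen with earlier results of these data known. Ratios of fragments and fragments per FPKM were added after seeing the data. Counting intervals and floors cover counting error only.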

Additional observations from a re-analysis of the deposited data

Results flagged for a closer look

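Nf2 in siYap replicate 5 stood at 19.53 CPM, apart from the nearest of the other 4 siYap libraries at 27.16 CPM, a gap of 0.8275 of the range of the group. It was the only such library among 26 groups of values examined, and chance alone sets about 1 in 20 groups apart in this way. Without it the log2 fold change of Nf2 was 0.19 (edgeR, adjusted p = 0.333). This library is also the only siYap library with the digit 8.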

How the results depend on the processing

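Over 26 alternatives, Lats2, Mob1a, Mob1b, Sav1 and Wwc1 kept their direction and stayed short of the threshold, as did Stk4 over 23. The number of the 10 genes called higher was 1 (Lats1) with a mean count of at least 50, without siYap replicates 1 and 3, and without replicate 1 of both groups; with single libraries left out it was 0 to 1, as was the number called lower (Stk3). Taok1 turned positive with a mean count of at least 50 (0.0132), with limma on FPKM (0.0025 and 0.0024), with counts summed per file-name number (0.0014) and without siYap replicates 1 and 3 (0.0693), and ran from -0.0321 to 0.0521 with single libraries left out (0.0017, 0.0169 and 0.0067 without siLuc replicates 6, 7 and 8). Nf2 turned negative with limma on FPKM (-0.0849 and -0.0962) and with summed counts (-0.0065). The cause was not tested.

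The replicate numbers did not pair the libraries (correlations of same-numbered libraries -0.12, 0.127, 0.072, 0.118 and -0.0873, and 1 of 5 siYap libraries correlated best with its own number). With the replicate block 2325 genes were called in place of 4668, 15 of the other pathway genes in place of 32, and Taok1 stood at 0.0507. Without siYap replicates 1 and 3 the counts were 2984 and 18, at an adjusted p under 0.01 they were 2362 and 16, and with single libraries left out 3325 to 4633 and 24 to 32.

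Of the FPKM ratios, Lats2 to Lats1 passed as a ratio of fragments (-0.43), with splits within the digit (-0.37, adjusted p = 0.0476, exact permutation) and without replicate 1 of both groups (-0.41), and ran from -0.46 to -0.31 with single libraries left out, passing without siLuc replicate 1 or siYap replicate 3. Mob1b to Mob1a fell short per file-name number (0.45) and without siYap replicates 1 and 3 (0.28). Per file-name number its exact permutation p was 0.0179, the smallest possible there (adjusted p = 0.0536). With single libraries left out it ran from 0.35 to 0.55, falling short without siLuc replicate 2, 3, 5, 7 or 8 or siYap replicate 1 or 5. Stk3 to Sav1 fell short under the same settings (-0.42 and -0.49). With single libraries left out it ran from -0.58 to -0.39, falling short without siLuc replicate 2, 3, 5 or 7 or siYap replicate 5. With the replicate block the 3 ratios gave -0.31, 0.47 and -0.52. Its sign flips over 5 pairs allow no p under 0.0625, so no ratio could pass there. Depth limits Stk4, with at most 16 fragments per library, and how far it limits the other 9 was not tested.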
